A study of Arabidopsis thaliana with 16 samples.

Results

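The 71 probe sets described here read higher in leaves and lower in roots of an Arabidopsis thaliana mutant of ferredoxin-dependent glutamate synthase than in the wild type. They were chosen from 22266 probe sets by the measured values themselves. The mean of the mutant arrays had to lie at least 0.3 above the wild-type mean in leaves and at least 0.3 below it in roots on the log2 scale, with all 4 mutant arrays on one side of all 4 wild-type arrays in each organ. The criteria for leaves were met by 13.6% of all probe sets, those for roots by 2.63%, and both by 86 probe sets (0.386%), of which 15 were left out by name (AT1G26380 and symbols that begin with UGT, GST, CYP, ABC or MYB). The opposite directions in the organs are therefore fixed by the choice, and the leaf and root differences below are given as a description. With both signs turned, 206 probe sets met the same criteria.

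The study compared wild-type Col(0) with GLU1-KO plants, homozygous for a T-DNA in Fd-GOGAT1 and called glu1-2. Rosette leaves and roots of 18 day old plantlets, grown in vitro in a 16 h photoperiod on medium with sucrose and ammonium nitrate, were harvested and hybridised separately to Affymetrix ATH1 arrays. There were 4 biological replicates of each genotype and organ, or 16 arrays. The mutant is a single insertion line, and no complemented line or further allele was among the arrays, so effects of the locus and of other differences of the line cannot be told apart.

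Fd-GOGAT makes glutamate from glutamine and 2-oxoglutarate in plastids, and in leaves it also recovers the ammonium that photorespiration releases. Roots and leaves share the handling of nitrogen, sulfur and metals. Roots take up nitrate, sulfate and iron and load the xylem. Leaves use light to assimilate nitrate and sulfate, and assimilation also takes place in roots. Multidrug and toxic compound extrusion (MATE) carriers, sulfotransferases, camalexin enzymes and receptor-like kinases, which occur among the 71, belong to the machinery by which plants export, conjugate or respond to toxic compounds and pathogens.

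Values are the deposited expression intensities, normalised by the robust multichip average (RMA) method. Leaf arrays had median intensities between 97 and 102, and root arrays between 106 and 110. Signal with a group mean under 32 was treated as not told from background, a limit that was set and not measured. Where a single mean of a comparison lay under it, only a lower bound of the difference was read. Where both did, no bound follows. Of the 71, 57 had all 4 group means at or above 32 and only AT1G21550 had all 4 below it. The annotation used here gave no probe set for Fd-GOGAT1. The probe set with the largest fall in glu1-2 leaves, unnamed, read 1245 to 2472 in wild-type leaves, 29 to 39 in glu1-2 leaves, 31 to 36 in wild-type roots and 20 to 30 in glu1-2 roots. A name was available for 60 of the 71, for 36 from the platform annotation and for 24 from a match of their leaf values to genes that the study lists as induced in leaves. The descriptions of function come mainly from the same list, so annotated members had the larger leaf differences (the 33 members not placed in a role group had a median of 0.51), and the grouping by role below was made after the names were known.

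Across the 71, the leaf difference between glu1-2 and the wild type ran from 0.32 to 4.39 on the log2 scale with a median of 0.76, against a median of -0.02 over all probe sets. The root difference ran from -1.21 to -0.30 with a median of -0.38, against 0.01 over all probe sets. The pattern was thus uneven: the leaf difference was the larger for 64 members and the root difference for 7, a log2 difference of at least 1 was reached by 23 in leaves and by 1 in roots, and 68 lay between -0.6 and the limit of -0.3 in roots. The 7 with the larger root difference were AT1G26420, AT4G19390, AT2G17280, AT3G05390, AT3G27200 and the unnamed probe sets 246821_at and 261450_s_at. For AT1G26420, AT3G05390 and 261450_s_at both leaf means were under 32. The size of their leaf difference is therefore open, and which difference is larger cannot be read for them.

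**Figure D1:**
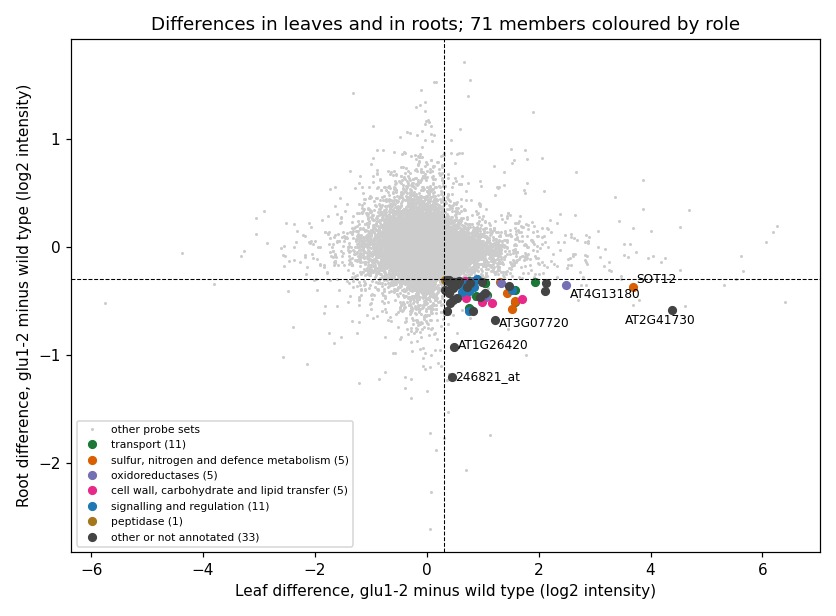
Difference between glu1-2 and wild type in leaves (x axis) and in roots (y axis), both in log2 intensity, for each probe set; coloured points are the 71 members by role, grey points the other probe sets, and dashed lines the limits of 0.3 and -0.3. The members spread along the leaf axis to 4.39 (AT2G41730), while in roots only 246821_at (-1.21), AT1G26420 (-0.93) and AT3G07720 (-0.68) lie below -0.6.

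Of the 71, 69 passed in leaves (limma, q under 0.01), where 14.2% of all probe sets were higher in glu1-2 at that threshold. In roots 32 passed, where 1.26% of all probe sets were lower. All 32 also passed in leaves, where the share of all probe sets past both tests was 0.193%. These counts follow from how the members were chosen and are no support for it. The number past the root test was 11 to 18 when any single root array was left out, with the lowest value without Root GLU1-KO replicate 2, and the number meeting the selection criteria was 60 without Root Col(0) replicate 3, of which 55 were among the 71. That array read above its own group's mean for 54 of the 71 members, against 23 to 28 on the other wild-type root arrays, and its median deviation from the group mean over the members was 0.08, against -0.01 over all probe sets.

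No limit of the choice was set on the organ average, the mean of both leaf groups minus the mean of both root groups, tested over all 16 arrays. The choice can still bear on it through signal level. A wild-type leaf mean under 32 was found for 12 members and a wild-type root mean under 32 for 2, against 31% and 30.6% of all probe sets. This link was not tested, so the counts below are a description. By this contrast 48 of the 71 members (67.6%) were higher in roots (limma, q under 0.01), where 40.3% of all probe sets were, and 18 (25.4%) were higher in leaves, where 42.9% of all probe sets were. A difference of at least 1 on the log2 scale in favour of roots was found for 36 members (50.7%), against 12.1% of all probe sets, and in favour of leaves for 5 (7.04%), against 12% of all probe sets. The median organ average was -1.04 over the members and 0.04 over all probe sets. A root-side majority was also found in wider sets: among all 3154 probe sets higher in glu1-2 leaves 62.7% were higher in roots by the organ average, and among all 280 lower in glu1-2 roots 79.3%. Of the 206 probe sets with both signs turned, 84.5% were higher in leaves, with a median of 2.89. The residual SD between arrays had a median of 0.149 over the members and 0.135 over all probe sets. The 14 members with a group mean under 32 have at most a bound here. Such means were also set to 32, a choice made after the values were seen. The counts at a difference of at least 1 were then 34 in favour of roots and 5 in favour of leaves.

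**Figure D2:**
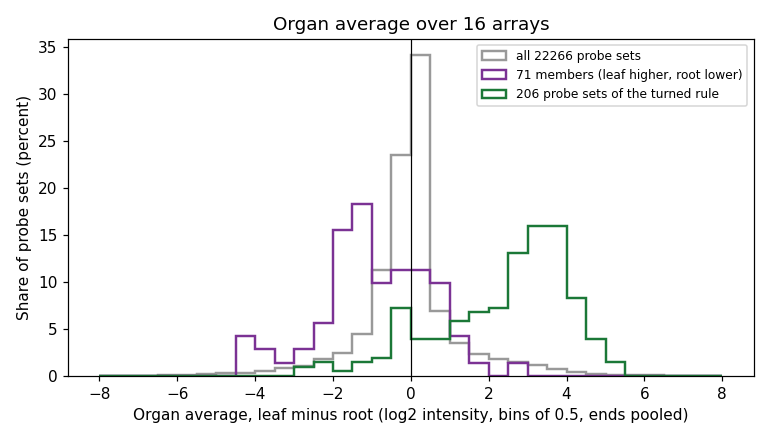
Share of probe sets (y axis, percent) by organ average, leaf minus root (x axis, log2 intensity in bins of 0.5), for all 22266 probe sets (grey), the 71 members (purple) and the 206 probe sets of the turned criteria (green). The members lie mostly left of 0, with a median of -1.04, and the turned set mostly right of it, with a median of 2.89.

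Seen within each genotype, 62 of the 71 members had a higher mean in wild-type roots than in wild-type leaves, and for 57 all 4 root arrays lay above all 4 leaf arrays, where 34.9% of all probe sets did. The reverse held for 4 members and for 29.7% of all probe sets. In glu1-2 the mean was higher in roots for 43 and in leaves for 28, and the arrays did not overlap for 36 in favour of roots (31.9% of all probe sets) and for 26 in favour of leaves (28.2% of all). The median gap, leaf minus root, stood at -1.62 for the wild type but at -0.29 for glu1-2, against 0.03 and 0.05 over all probe sets. For 19 members the order of the organs turned, from a higher root mean in the wild type to a higher leaf mean in glu1-2, and for 12 of these the organs did not overlap in either genotype. The share of all probe sets that turned in this way was not counted. A shift towards leaves in glu1-2 is fixed by the choice of members, and the gap in either genotype rests in part on the values that chose them, so these counts are a description. The 9 members that already had the higher mean in wild-type leaves were NIT4, AT1G71140, AT3G19550, AT3G21690, AT4G19390, AT5G22860, EDA39 and the unnamed 267083_at and 260951_at.

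**Figure D3:**
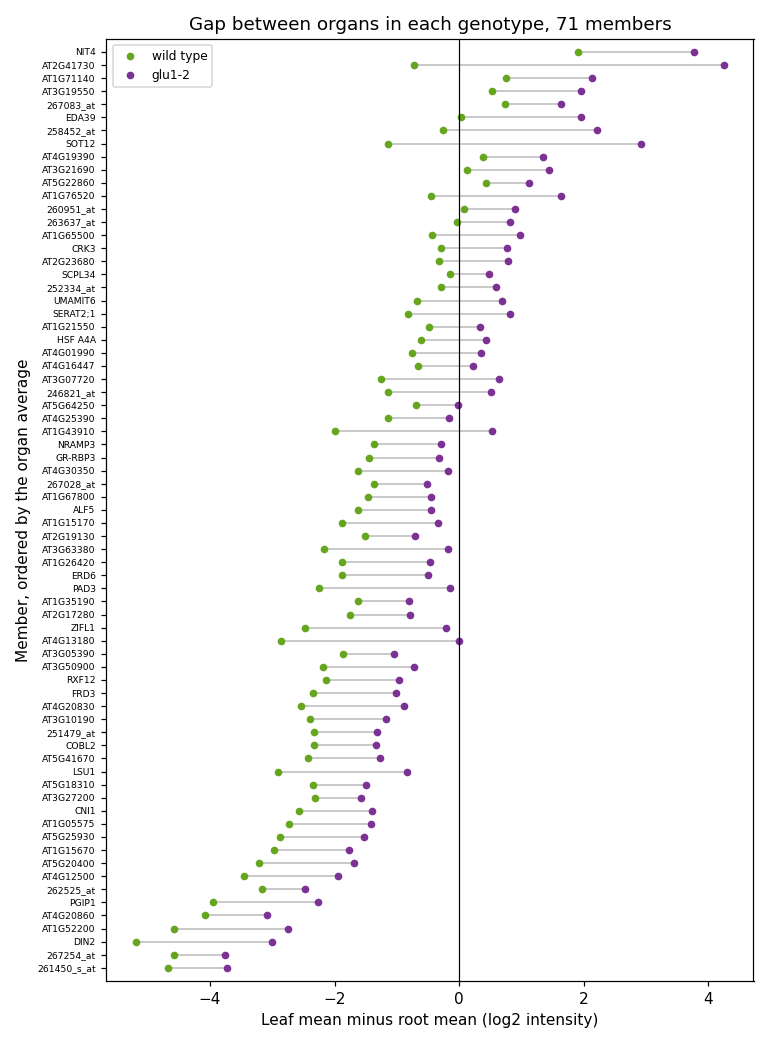
Gap between the leaf mean and the root mean (x axis, log2 intensity) in the wild type (green) and in glu1-2 (purple) for each of the 71 members, ordered by the organ average. In the wild type 62 points lie left of 0, and in glu1-2 43 do; the grey lines always run to the right because of how the members were chosen.

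Transport accounted for 11 members. Their leaf differences ran from 0.75 to 1.94 and their root differences from -0.59 to -0.32. Both tests were passed by 5, against 0.193% of all probe sets, a count that follows from the choice. By the organ average 7 were higher in roots and 3 in leaves, beside shares of 40.3% and 42.9% of all probe sets and of 62.7% and 23.7% of those higher in glu1-2 leaves, so the split was close to that of leaf-raised probe sets in general. Of the 11, FRD3, ALF5, AT3G21690, AT1G71140 and AT1G15170, belong to the MATE efflux family, whose members export organic compounds. FRD3, which releases citrate for the movement of iron in the xylem, read 85, 63, 60 and 80 in wild-type leaves and 131, 135, 126 and 130 in glu1-2 leaves. In roots it read 352, 387, 365 and 344 in the wild type and 250, 271, 270 and 265 in glu1-2. The root arrays thus lay above all leaf arrays in both genotypes, and FRD3 was 3.21-fold higher in roots by the organ average (log2 -1.68, SE 0.0664, limma, q = 2.36e-16). ALF5, needed for normal lateral root growth and tolerance of toxic compounds, was likewise on the root side at -1.04 (q = 3.07e-12), with 142 to 203 in wild-type leaves, 287 to 342 in glu1-2 leaves, 538 to 581 in wild-type roots and 411 to 487 in glu1-2 roots. AT1G15170 was at -1.11 (q = 2.47e-11), with 30 to 46 and 79 to 89 in wild-type and glu1-2 leaves and 126 to 188 and 105 to 109 in the corresponding roots.

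The remaining pair of MATE genes stood on the leaf side. AT1G71140 read 86, 73, 104 and 87 in wild-type leaves and 109, 134, 185 and 186 in glu1-2 leaves. Its root arrays read 44, 49, 60 and 54 in the wild type and 40, 38, 30 and 30 in glu1-2. Its lowest leaf array therefore lay above its highest root array, and the organ average was 1.44 (limma, q = 1.82e-11). AT3G21690 was at 0.78 (q = 2.69e-10), and its wild-type leaf arrays (341 to 394) overlapped its wild-type root arrays (315 to 404), whereas the glu1-2 leaf arrays (570 to 725) and root arrays (208 to 254) did not overlap. The 5 MATE genes thus differed in the organ in which they were more abundant.

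Metals, auxin, calcium, sugars and amino acids were represented by single carriers. ZIFL1, a carrier of the major facilitator superfamily, had the largest leaf difference of the group, 1.94, and read 107, 110, 116 and 129 in wild-type leaves and 499, 459, 434 and 380 in glu1-2 leaves. The root values were 601, 654, 694 and 606 in the wild type and 544, 578, 522 and 412 in glu1-2, a difference of -0.32 that did not pass the root test (q = 0.0725). The leaf arrays of glu1-2 overlapped its root arrays, whereas the wild-type leaf arrays lay far below the wild-type root arrays. NRAMP3, which releases metal ions including iron from the vacuole, read 111 to 133 in wild-type leaves, 194 to 222 in glu1-2 leaves, 281 to 338 in wild-type roots and 239 to 260 in glu1-2 roots, and was on the root side at -0.82 (q = 2.35e-12). AT1G76520, of the auxin efflux carrier family, turned its order: wild-type leaves read 316 to 427 against 503 to 543 in roots, and glu1-2 leaves 1074 to 1181 against 348 to 387 in roots. AT3G63380, a calcium-transporting ATPase of the plasma membrane type, had a wild-type leaf range of 21 to 32, with a mean under 32, and 66 to 88 in glu1-2 leaves. Its roots read 109 to 131 in the wild type and 74 to 101 in glu1-2, so that the organs overlapped in glu1-2 only. ERD6, a sugar transporter first described as responsive to dehydration, was on the root side at -1.20 (q = 2.53e-15), with 318 to 394 and 678 to 784 in leaves and 1245 to 1353 and 983 to 1090 in roots of the wild type and glu1-2. UMAMIT6, of a family that includes amino acid exporters, read 65 to 83 in wild-type leaves and 145 to 156 in glu1-2 leaves, and 101 to 139 and 83 to 98 in the corresponding roots. Its organ average of 0.01 did not pass (q = 0.1) and changed sign when some single arrays were left out.

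**Figure D4:**
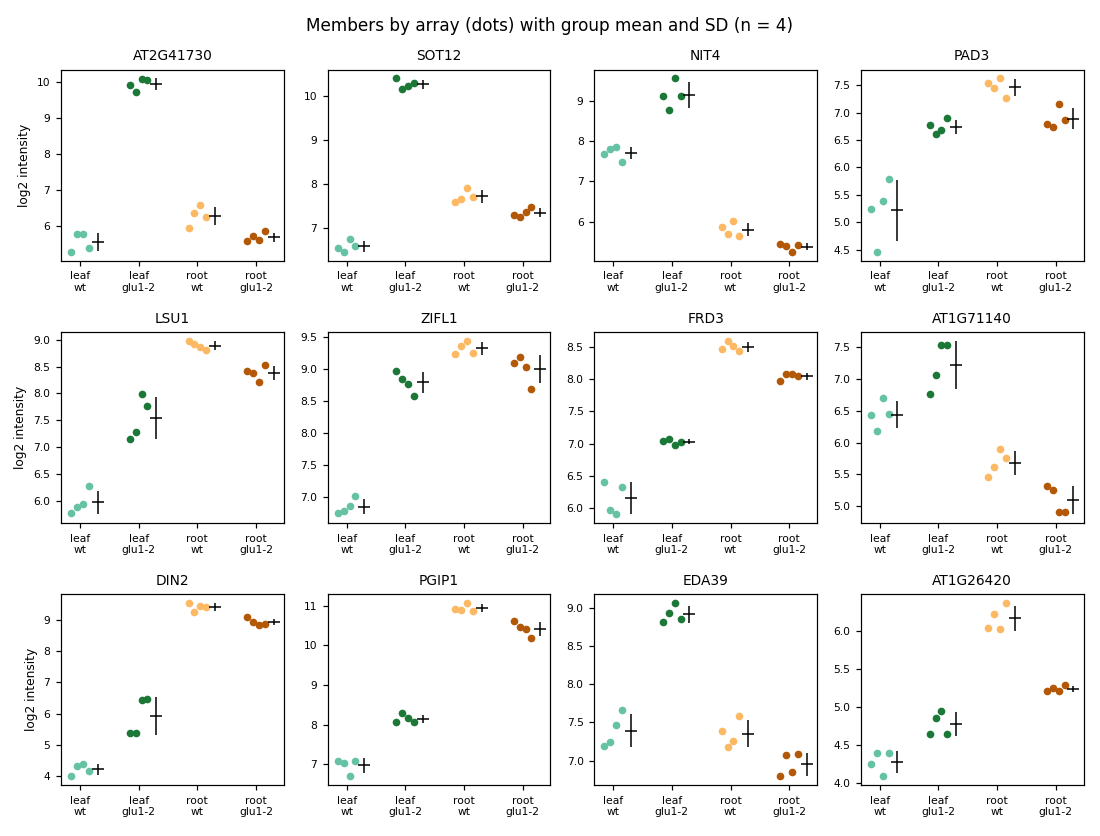
Log2 intensity (y axis) of 12 members on each of the 16 arrays (dots), with the mean and SD of each group of 4 beside them; the axes differ between panels. DIN2, PGIP1, LSU1 and FRD3 stay higher in roots in both genotypes, NIT4 and AT1G71140 stay higher in leaves, and AT2G41730 and SOT12 turn from the root side to the leaf side.

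The 5 members of the next group act in sulfur and nitrogen metabolism or make defence compounds. Their leaf differences ran from 1.31 to 3.69 and their root differences from -0.57 to -0.32. All 5 were named only through the genes that the study lists as induced in leaves. Their large leaf differences therefore cannot be read as a trait of the group. SOT12, a sulfotransferase that conjugates sulfate to phenolic and steroid compounds, read 92, 87, 106 and 96 in wild-type leaves and 1342, 1129, 1182 and 1245 in glu1-2 leaves, 12.9-fold higher. Root intensities were 191, 202, 240 and 207 in the wild type and 155, 150, 164 and 177 in glu1-2, 1.3-fold lower and not past the root test (q = 0.0167). The wild type had more signal in roots and glu1-2 more in leaves, with no overlap in either. LSU1, a protein induced by low sulfur, read 55, 59, 62 and 78 in wild-type leaves and 142, 156, 254 and 217 in glu1-2 leaves. In roots it read 506, 482, 463 and 447 in the wild type and 342, 332, 296 and 369 in glu1-2. All its root arrays lay above all leaf arrays, and the organ average was -1.87 (limma, q = 6.08e-14). SERAT2;1, a serine acetyltransferase that supplies O-acetylserine for cysteine, had 859 to 916 in wild-type leaves, 2134 to 2314 in glu1-2 leaves, 1479 to 1792 in wild-type roots and 1229 to 1376 in glu1-2 roots. It too turned its order without overlap, and its organ average, -0.01, did not pass (q = 0.095).

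NIT4, a nitrilase that converts the cyanide product beta-cyanoalanine to asparagine and aspartate, was the member most biased to leaves. It read 207, 223, 230 and 180 in wild-type leaves and 555, 440, 756 and 561 in glu1-2 leaves. Its root arrays read 58, 52, 65 and 50 in the wild type and 44, 42, 38 and 43 in glu1-2. Every leaf array lay above every root array, and by the organ average NIT4 was 7.13-fold higher in leaves (log2 2.83, SE 0.0895, limma, q = 4.79e-18). PAD3, a cytochrome P450 of the last step of camalexin synthesis, was on the root side (organ average -1.20, q = 4.11e-09). It read 38, 22, 42 and 55 in wild-type leaves and 109, 97, 103 and 119 in glu1-2 leaves, and 185, 174, 197 and 153 in wild-type roots and 111, 107, 143 and 116 in glu1-2 roots. The organs did not overlap in the wild type but did in glu1-2. PAD3 stayed among the members because its symbol does not begin with CYP, although its protein is of that family.

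The 5 members grouped as oxidoreductases were all higher in roots by the organ average, from -3.58 to -1.43. Beside them, 40.3% of all probe sets and 62.7% of those higher in glu1-2 leaves were higher in roots. The short-chain dehydrogenase AT4G13180 had the largest leaf difference of these, 2.50. It read 238, 240, 280 and 270 in wild-type leaves and 1503, 1376, 1428 and 1484 in glu1-2 leaves. The root values were 1808, 1833, 1920 and 1864 in the wild type and 1431, 1448, 1508 and 1437 in glu1-2. The leaf and root arrays of glu1-2 thus lay in the same range, where those of the wild type were far apart. AT4G20830 and AT4G20860 are FAD-binding proteins similar to reticuline oxidase, separated by 3 genes on chromosome 4, and were the only members within 10 genes of each other among the 60 with a place in the reference. AT4G20830 read 82 to 115 and 231 to 278 in wild-type and glu1-2 leaves, and 533 to 695 and 438 to 501 in the corresponding roots. AT4G20860 read 20 to 34 and 42 to 52 in leaves, with the wild-type mean under 32, and 413 to 553 and 334 to 405 in roots. Both stayed higher in roots in both genotypes, with organ averages of -1.72 (q = 6.58e-16) and -3.58 (q = 2.07e-19). For AT4G20860 the bound, with its wild-type leaf mean set to 32, was -3.495. The others were the 2-oxoglutarate-dependent oxygenase AT5G20400, at -2.45, and AT5G41670 of the 6-phosphogluconate dehydrogenase family, at -1.85.

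Cell wall, carbohydrate and lipid transfer proteins gave 5 members, and these too were all higher in roots by the organ average, from -4.10 to -1.55. The same shares of 40.3% of all probe sets and 62.7% of those higher in glu1-2 leaves stand beside this count. The value of -4.10 belonged to DIN2, a beta-glucosidase known to be induced in the dark and by lack of sugar. It read 16, 20, 21 and 18 in wild-type leaves, with a mean under 32, and 42, 42, 87 and 88 in glu1-2 leaves. Root intensities were 746, 613, 696 and 675 in the wild type and 538, 483, 460 and 469 in glu1-2. It was higher in roots by the organ average (limma, q = 9.88e-18), with a bound of -3.71 when its wild-type leaf mean was set to 32, and its glu1-2 leaf arrays fell into a lower and a higher pair. PGIP1, an inhibitor of fungal polygalacturonases, read 137, 131, 104 and 136 in wild-type leaves and 267, 313, 287 and 270 in glu1-2 leaves. In roots it read 1942, 1897, 2161 and 1864 in the wild type and 1566, 1421, 1365 and 1167 in glu1-2. All root arrays lay above all leaf arrays, and PGIP1 was 8.67-fold higher in roots (q = 1.82e-20). AT4G12500, of the lipid transfer protein family, had a wild-type leaf range of 17 to 20, with a mean under 32, 32 to 43 in glu1-2 leaves, 177 to 250 in wild-type roots and 133 to 157 in glu1-2 roots. The other members of the group were the xylanase RXF12 (-1.55) and COBL2 of the COBRA family of wall proteins (-1.83).

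Signalling and regulation accounted for 11 members, with leaf differences of 0.62 to 1.52 and root differences of -0.60 to -0.30. Both tests were passed by 6, against 0.193% of all probe sets, a count that follows from the choice. By the organ average 8 were higher in roots and 2 in leaves. The shares were 40.3% and 42.9% of all probe sets, and 62.7% and 23.7% of those higher in glu1-2 leaves. Calcium signalling was represented by EDA39, a calmodulin-binding protein, and by the putative calmodulin AT3G10190. EDA39 read 146, 151, 177 and 202 in wild-type leaves and 448, 488, 535 and 461 in glu1-2 leaves. Its root arrays read 168, 145, 153 and 192 in the wild type and 111, 135, 115 and 136 in glu1-2. Its organs overlapped in the wild type and were apart in glu1-2, and the organ average was 1.00 in favour of leaves (q = 2.62e-11). AT3G10190 was on the root side, at -1.78. Protein kinases were also among the 11. The receptor-like kinase CRK3 read 348 to 424 in wild-type leaves, 629 to 646 in glu1-2 leaves, 435 to 514 in wild-type roots and 352 to 389 in glu1-2 roots, an order that turned without overlap. The leucine-rich repeat kinase AT5G25930 (-2.20) and the kinase AT4G25390 (-0.65) were on the root side.

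CNI1, a RING-type ubiquitin ligase known for the response of seedlings to the balance of carbon and nitrogen, read 30, 41, 41 and 56 in wild-type leaves and 73, 60, 78 and 68 in glu1-2 leaves. The root values were 245, 245, 231 and 254 in the wild type and 197, 167, 183 and 186 in glu1-2. Root arrays exceeded leaf arrays throughout, with an organ average of -1.98 (q = 3.52e-15). AT1G15670, a kelch repeat F-box protein, was the member closest to the root limit. It read 122 to 165 in wild-type leaves, 232 to 301 in glu1-2 leaves, 1042 to 1176 in wild-type roots and 812 to 1006 in glu1-2 roots, and its root difference of -0.30 did not pass the root test (q = 0.0358). HSF A4A, a heat shock transcription factor, did not pass by the organ average (-0.09, q = 0.0144), whereas the heat shock protein-related AT4G30350 (-0.90), the RNA-binding protein GR-RBP3 (-0.89) and the copine-related AT1G67800 (-0.96) were higher in roots.

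The other 34 members were the serine carboxypeptidase-like SCPL34 and 33 that were not placed in a role group. Since the groups rest on the descriptions at hand, some of these 33 may belong to the groups above, whose counts may be incomplete. The largest leaf difference of all, 4.39 or 20.9-fold, was that of AT2G41730, an expressed protein of unstated function. It read 39, 55, 55 and 42 in wild-type leaves and 964, 850, 1081 and 1072 in glu1-2 leaves. Root intensities were 62, 82, 96 and 76 in the wild type and 48, 53, 49 and 58 in glu1-2. It turned its order without overlap, and its probe set is of the type that can also bind other transcripts. AT1G43910, of the AAA-type ATPase family, had 36 to 54 in wild-type leaves, 164 to 216 in glu1-2 leaves, 149 to 188 in wild-type roots and 110 to 139 in glu1-2 roots. AT3G07720, a kelch repeat protein similar to epithiospecifier, was one of the 3 members below -0.6 in roots. It read 323, 259, 335 and 301 in wild-type leaves and 721, 685, 720 and 704 in glu1-2 leaves, and 732, 689, 791 and 692 in wild-type roots and 418, 429, 479 and 488 in glu1-2 roots. The glu1-2 leaves thus read about as high as wild-type roots, and glu1-2 roots lay above wild-type leaves. AT1G52200, similar to a petunia protein, stayed on the root side (-3.67, q = 5.38e-20) with 51 to 89 and 173 to 204 in leaves and 1502 to 1698 and 1164 to 1358 in roots. AT3G19550 stayed on the leaf side (1.25, q = 3.93e-12) with 37 to 61 and 78 to 101 in leaves and 32 to 39 and 22 to 25 in roots, where the glu1-2 mean was under 32. With that mean set to 32, its organ average had a bound of 1.01.

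The 2 members with the largest root differences had small leaf differences. AT1G26420 read 66, 75, 65 and 83 in wild-type roots and 37, 38, 37 and 39 in glu1-2 roots. In leaves it read 19, 21, 17 and 21 in the wild type and 25, 29, 31 and 25 in glu1-2, with both means under 32, so the leaf difference of 0.49 lay near background. The unnamed 246821_at read 187, 184, 157 and 321 in wild-type roots and 92, 98, 79 and 85 in glu1-2 roots, a difference of -1.21. Without its highest wild-type root array this was -0.99. Its leaf arrays read 89, 74, 110 and 100 in the wild type and 130, 128, 123 and 123 in glu1-2. Among the 11 unnamed members, 261450_s_at and 267254_at had wild-type leaf ranges of 8 to 10 and 25 to 33, and their organ averages, with means under 32 set to 32, were -2.58 and -4.07, while 258452_at had a leaf difference of 2.14 and was on the leaf side at 0.98.

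At the limits of the selection, the members with the smallest of their differences nearest to 0.3 were AT1G15670 (0.90 in leaves, -0.30 in roots), SCPL34 (0.32 and -0.31) and AT5G22860 (0.39 and -0.31). SCPL34 read 171 to 201 and 208 to 259 in leaves and 194 to 236 and 162 to 177 in roots of the wild type and glu1-2. AT5G22860 read 149 to 157 and 158 to 228 in leaves and 100 to 125 and 90 to 96 in roots. Just outside by size were the unnamed 245976_at (0.45 and -0.30, unrounded above the limit), PBP1 (0.96 and -0.29) and AT3G55470 (0.60 and -0.29). Larger differences that were outside only because arrays overlapped included AT5G64120 (0.63 and -0.59) and AT3G18250 (0.55 and -0.80). The members just inside and outside thus differed by little.

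Among lists of genes by pathway, counted only with the platform names, few genes were measured and none of those counted was a member. Of the iron genes measured, the regulator BHLH101 fell by 2.57 in leaves and by 1.02 in roots. The regulator PYE fell by 0.71 in leaves and did not pass in roots (-0.07, limma, q = 0.535). NRAMP5, of the same list, passed in neither organ (-0.11 in leaves, q = 0.22, and -0.02 in roots, q = 0.729). Of 5 sulfate genes, 2 were higher in leaves, the sulfite reductase SIR (0.61) and the ATP sulfurylase APS3 (0.45), 1 was lower, APS4 (-0.35), and none passed in roots (limma, q under 0.01), where 1, APS4, was higher at an unadjusted p under 0.05. The median leaf difference of this list was 0.43 and its median root difference 0.12, against -0.02 and 0.01 over all probe sets. On the indole and glucosinolate list of 10 genes, JAL23 was higher (1.06) and AOP1 lower (-0.66) in leaves, and BCAT4 was higher in roots (0.35). This list was matched by symbol and also took in PYK10 and genes of the JAL and NAI names, so its counts do not describe a single pathway. The members on these lists, FRD3, NRAMP3, LSU1, SERAT2;1, NIT4 and PAD3, were named only through the leaf-induced genes of the study and are not in these counts.

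Markers of each organ were read to check the labels and the harvest. Of 32 leaf markers 4 were measured by name, and of 29 root markers 3. The summed intensity of the leaf markers was 36370 to 38087 in wild-type leaves and 25308 to 32614 in glu1-2 leaves, and 2670 to 3344 in wild-type roots and 4233 to 4627 in glu1-2 roots. That of the root markers was 1227 to 1534 and 1094 to 1544 in leaves and 11016 to 13300 and 10562 to 13296 in roots. The organs thus carried their labels' markers on all arrays. Of the 4 leaf markers, 2 were lower in glu1-2 leaves and higher in glu1-2 roots, the opposite of the members: the Calvin cycle kinase PRK was lower in leaves by 0.59 and higher in roots by 0.87, and the photorespiratory reductase HPR1 was lower by 0.69 and higher by 0.71 (limma, q under 0.01 for each). The Rubisco activase RCA was higher in roots by 0.64 (q = 0.000407), with a leaf difference of -0.20 that did not pass (q = 0.059). The antenna protein LHCB4.1 passed in neither organ, with -0.15 in leaves (q = 0.132) and 0.38 in roots (q = 0.0186). The part of leaf tissue or of plastid transcripts in the root values of the members was not tested. The root markers PYK10, EXPA7 and EXPA18 did not pass in either organ at this threshold, and with whole organs a change in the share of a cell type and a change in RNA per cell cannot be told apart.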

How the data were processed

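Total RNA of leaves and roots was measured on 16 ATH1 arrays, 4 for each combination of organ and genotype. RMA with quantile normalization was run by the authors (version not given), and the deposited intensity values are rounded, linear and between 6 and 18391, with 30.6% under 32. These were taken to log2 with no further normalization. Of 22279 probe sets, 13 controls were left out. Names came from the platform annotation with RefSeq symbols of assembly TAIR10.1 (13216 with 1 gene, 491 with several), and for 600 probe sets from leaf values in a gene list of the study that agreed within 0.51 intensity units, while 7959 stayed unnamed.

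Each organ was fitted alone by moderated two-sided tests with limma 3.58.1 in R 4.3.3, and the organ average over 16 arrays, with Storey q under 0.01 over 22266 probe sets. Figures were drawn in Python 3.11.15. The fit was tested on simulated data. The members, gene lists and tests were chosen with earlier results of these data known. Genes named are the 15 with the largest opposition, 5 at each end of the organ average, members on a list or of a shared family, and those next to the limits; further ones were added after their values were seen. Alternatives were renewed quantile normalization, equal medians, other limits, Benjamini-Hochberg adjustment, q under 0.05, dim or ambiguous probe sets left out, an intensity trend, a replicate block, a joint fit and each array left out. Sequences were not used here. The number of arrays limits the precision.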

Additional observations from a re-analysis of the deposited data

Results flagged for a closer look

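Among 128 groups of 4 arrays of the named members, 6 had an array apart from the other 3 by Dixon's criterion. About 1 in 20 of all groups would be flagged by chance at this level, a share close to the one found. The 6 are therefore listed as a description only. ALF5 read 142 on Leaf Col(0) replicate 1 against 195 to 203 on the others, and 287 on Leaf GLU1-KO replicate 3 against 339 to 342. PGIP1 read 104 on Leaf Col(0) replicate 3 against 131 to 137, and SERAT2;1 read 859 on the same array against 909 to 916. NRAMP3 read 222 on Leaf GLU1-KO replicate 2 against 194 to 197. AT4G20860 read 334 on Root GLU1-KO replicate 2 against 393 to 405.

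All 71 members had opposite genotype differences in the organs, which the choice of members fixes and which was not tested. For organ markers the difference between the leaf and the root effect was tested over 16 arrays (limma): it was -1.46 for PRK (q = 3.27e-09), -1.40 for HPR1 (q = 2.11e-07), -0.84 for RCA (q = 9.07e-06), -0.53 for LHCB4.1 (q = 0.00171) and -0.63 for the root hair expansin EXPA18 (q = 0.0029).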

How the results depend on the processing

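The number of probe sets meeting the criteria, 71, became 147 with limits of 0.2, 11 with limits of 0.5 and 120 where arrays could overlap, and was 60 to 94 with single arrays left out. The number past the root test, 32, and past both tests, 32, became 67 each at q under 0.05, 20 each with probe sets of 1 gene only (60 members remained), 55 each with an intensity trend and robust moderation, and 11 to 32 each with single arrays left out. With a replicate block it was 8 in roots and 8 in both; the numbers were not treated as pairs, since the same-number correlations of deviations within an organ ran from -0.04 to 0.13. The leaf count stayed at 66 to 69 with arrays left out, the root-side count by the organ average at 48 to 49 and the leaf-side count at 18 to 19. The organ average of SERAT2;1 changed sign when arrays were shifted to the same median (0.10) and ran from -0.0273 to 0.0189 with arrays left out, and that of UMAMIT6 from -0.0275 to 0.0493. The causes were not tested. Background correction of the scans could not be varied, and signal near background limits the 14 members with a group mean under 32.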
